A study of Mus musculus with 6 samples.

Results

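Muscle protein is broken down in large part by the ubiquitin-proteasome system, in which an E3 ubiquitin ligase recognises a protein, ubiquitin is attached to it, and the proteasome degrades it. The genes described here are 7 ubiquitin ligase genes linked to muscle wasting (Fbxo32, Trim63, Fbxo30, Fbxo21, Fbxo31, Trim32 and Nedd4) and the FoxO factors Foxo1, Foxo3 and Foxo4, transcription factors of the forkhead family that activate several of these ligases. Fbxo32 encodes atrogin-1 and Trim63 encodes MuRF1, the ligases best known for being induced in fasted, denervated, immobilised or glucocorticoid-treated muscle, and both are used as markers of atrophy. Insulin and growth factor signalling through Akt keeps FoxO factors out of the nucleus, and the loss of that signal lets them enter it.

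The genes were chosen by name, and every non-control probe whose RefSeq transcript belonged to one of them was taken, which gave 10 genes and 15 probes. All 10 genes were among the 20901 genes that could be tested, and all 15 probes passed the filter on dim probes. RNA came from the gastrocnemius, a mixed hindlimb muscle of the calf, of male C57BL/6J mice for which no genetic change or treatment is given. Young mice were 13 weeks old (n = 3) and aged mice were 26 months old (n = 3), and each mouse had its own single-colour Agilent array. The question is whether the RNA of these genes differed between aged mice and young mice. Values are log2 signals, for which 0 is the 75th percentile of the array, so that a difference of 1 is a factor of 2, and the values of a group are given in the order of its mice 1, 2 and 3. Signals of different probes are not compared with each other, because probes bind with different strength.

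The 6 arrays shared 1 slide and 1 scan. Young mice 1 to 3 and aged mouse 1 were in row 1 of the slide and aged mice 2 and 3 in row 2, so that row 2 held aged mice only. The array of aged mouse 1 had the most probes well above background (53.8%, against 48.7% to 50.8% on the others) and correlated more with that of young mouse 2 (r = 0.982 across genes, which are not independent replicates) than with that of aged mouse 2 (r = 0.976). Of 9 muscle fibre markers, 8 were tested and 0 passed the threshold, and the log2 of their summed signal was 12.3 to 12.5 in young mice and 12.0 to 12.4 in aged mice. The summed markers of some other cells did not overlap between the groups: 7 macrophage markers stood at 4.37 to 4.47 in young mice and 4.55 to 4.88 in aged mice, 5 fibroblast markers at 8.53 to 8.73 and 7.37 to 8.36, 5 endothelial markers at 3.93 to 4.21 and 3.47 to 3.74, 3 erythrocyte markers at 7.17 to 7.78 and 5.70 to 6.77, and 3 satellite cell markers at 3.89 to 3.92 and 3.93 to 4.12. A sum follows its brightest markers, and the single markers did not all share its direction. In aged mice 6 macrophage markers were higher and 1 lower, 2 endothelial markers higher and 3 lower, and 2 satellite cell markers higher and 1 lower. All 5 fibroblast and all 3 erythrocyte markers were lower. Of 5 Schwann cell markers 4 were lower in aged mice without overlap, while their sum overlapped (4.37 to 5.35 and 4.30 to 5.24). Of 5 neutrophil markers, 2 were higher without overlap, Retnlg by 3.45 and Fpr1 by 1.58, and 2 were lower without overlap. The sum of the 5 overlapped (7.29 to 7.33 and 7.19 to 7.52). Among all genes tested, 13.9% were lower and 7.92% higher in aged mice without overlap. For Retnlg and for Fpr1, signal clear of background was found in 0 of 3 young mice and 3 of 3 aged mice. Both probes thus passed the filter on dim probes through the aged mice alone. With young values near background, the sizes 3.45 and 1.58 are uncertain. None of these 7 lists had a gene past the threshold, and their part in the values below was not tested. In whole muscle, fewer cells of a type and less RNA per cell cannot be told apart.

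The sequences around the start sites of Trim63 and Foxo1 are shown because the forkhead site is the DNA sequence that FoxO factors bind, and because both genes followed the same order of mice, as described further on. Each is the RefSeq window on GRCm38.p6 of 250 bases before to 50 bases after the start of the transcript, 5′ to 3′ on the strand of the gene, for Trim63 chr4:134314870-134315169 (+ strand) and for Foxo1 chr3:52268087-52268386 (+ strand), with the forkhead letters GTAAACA in capitals on either strand.
Trim63: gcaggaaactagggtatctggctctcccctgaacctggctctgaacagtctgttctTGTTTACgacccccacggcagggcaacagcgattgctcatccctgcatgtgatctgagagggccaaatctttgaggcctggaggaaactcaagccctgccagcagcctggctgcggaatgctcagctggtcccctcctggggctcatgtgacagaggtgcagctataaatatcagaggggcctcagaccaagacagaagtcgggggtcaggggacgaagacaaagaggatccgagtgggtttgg
Foxo1: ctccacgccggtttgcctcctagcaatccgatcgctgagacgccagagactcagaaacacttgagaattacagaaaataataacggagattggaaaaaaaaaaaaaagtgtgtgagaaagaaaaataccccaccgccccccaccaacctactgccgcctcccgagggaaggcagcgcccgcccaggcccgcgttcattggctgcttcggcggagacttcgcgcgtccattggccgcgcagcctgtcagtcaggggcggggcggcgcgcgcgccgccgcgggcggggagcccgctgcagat
In the Trim63 window the letters were read on the other strand, as TGTTTAC, with their first base at position -194 from the start site. They directly followed TGTTCT at -200, which is AGAACA on the other strand and is the part of the glucocorticoid receptor site searched for. The window of Foxo1 held neither of these.

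Of the 10 genes, 8 had a window, 1 of them (Nedd4) with 2 windows, and Fbxo32 and Foxo4 had no entry. GTAAACA on either strand was found in the window of 1 of the 8 genes and in 3.65% of all 32851 windows, and among 22 other FoxO targets with a window in 1, Sesn1. The shorter TAAACA, which lies inside GTAAACA, was found in 2 of 8, Trim63 and Trim32 (at -174), and in 13.44% of all windows, and CAAAACA in 0 of 8 and 6.28%. AGAACA was found in 2 of 8, Trim63 and Nedd4, and in 18.97% of all windows. The E-box CANNTG, the kind of site that myogenin binds, was found in 4 of 8 and 72.31%, with 3 copies in Trim63, at -149, -72 and -50. A match of letters describes the window and does not show binding.

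Fbxo32 (probe A_51_P109369, NM_026346), the F-box protein atrogin-1, had the widest spread between mice of the 10 genes. Its log2 signal was 4.63, 5.48 and 3.89 in the young group and 6.65, 3.95 and 4.16 in the aged group. Aged mouse 1 was the highest of the 6, young mouse 3 the lowest, and aged mice 2 and 3 lay inside the range of the young mice. Group means were 4.67 ± 0.80 (young) and 4.92 ± 1.51 (aged; SD, n = 3 each), a difference of 0.25 (standard error 0.77, 95% confidence interval -1.57 to 2.07, adjusted p = 0.894 from limma). That interval runs from 0.337-fold to 4.19-fold. Within row 1 of the slide, aged mouse 1 was 1.98 above the mean of the young mice, and without aged mouse 1 the difference was -0.62. Without young mouse 3 it was -0.14.

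The array carries 10 spots of the Fbxo32 probe, and the probes of the other 9 genes have 1 spot each. Before scaling, the mean signal of the 10 spots was 7447, 11574 and 3109 in the young group and 31367, 4417 and 4833 in the aged group. The coefficient of variation among the spots of an array was between 3.09% and 9.03%, and the lowest of the 10 spots of aged mouse 1 (23705) was above the highest spot of every other array (12338). The SD among the spots of an array was 0.0446 to 0.145 on the log2 scale, against 0.80 between young mice and 1.51 between aged mice. The 10 spots share the hybridisation and the scan of their array, so their spread covers differences between spots of an array only. It does not cover differences in hybridisation between arrays, the labelling of the RNA or the muscle of each mouse.

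**Figure D1:**
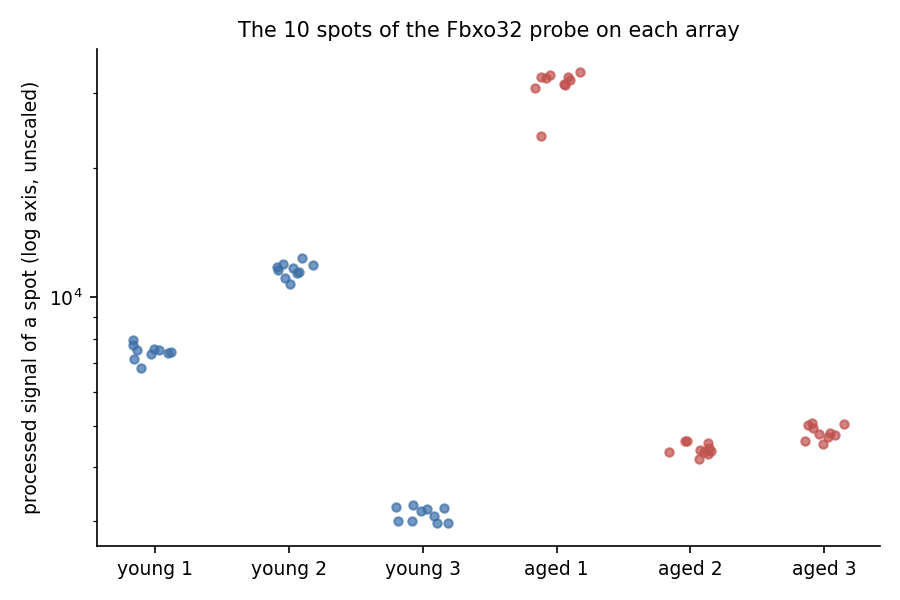
Processed signal of each of the 10 spots of the Fbxo32 probe (vertical log axis, before scaling between arrays) on the 6 arrays (horizontal axis; blue, young mice; red, aged mice). The spots of an array lie close together, those of aged mouse 1 between 23705 and 33563, and the arrays are far apart in both groups.

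Trim63 (NM_001039048), the RING-finger ligase MuRF1 that acts on proteins of the sarcomere, was measured by 2 probes. With the brighter one (A_52_P517224) the log2 signal was 7.19, 7.53 and 5.76 in the young group and 8.43, 6.38 and 7.50 in the aged group. Aged mouse 1 was again the highest and young mouse 3 the lowest, and the other 4 mice lay between them. Group means were 6.82 ± 0.94 (young) and 7.44 ± 1.03 (aged; SD, n = 3 each), a difference of 0.61 (standard error 0.63, 95% confidence interval -0.88 to 2.11, adjusted p = 0.678 from limma). The fold was 1.53, with an interval from 0.541 to 4.33. The second probe (A_55_P2106745) gave 0.61 (standard error 0.58) with the same highest and lowest mouse. The difference was 1.61 within row 1 of the slide, 0.12 without aged mouse 1, 0.082 without young mouse 3 and 1.14 without aged mouse 2.

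The other 3 F-box ligases were closer between mice. Fbxo30 encodes the ligase MUSA1, whose gene is restrained by BMP signalling, and Fbxo21 encodes the ligase SMART, which FoxO factors activate. The log2 signal of Fbxo30 (A_51_P223036, NM_027968) was 0.79, 1.11 and 0.93 in the young group and 1.13, 0.74 and 0.90 in the aged group. These overlapped almost in full, and the difference was -0.02 (95% confidence interval -0.45 to 0.41, adjusted p = 0.963 from limma). A second, dimmer probe of Fbxo30 (A_66_P123804) read -1.33, -1.02 and -1.59 in the young group and -0.57, -1.27 and -0.85 in the aged group, a difference of 0.42 (standard error 0.25, adjusted p = 0.487 from limma over probes). The 2 probes thus disagreed on direction. With the first probe the difference was 0.063 without young mouse 2, 0.071 without aged mouse 2 and 0.19 within row 1 of the slide.

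Fbxo21 (A_51_P193490, NM_145564) was at 2.35, 2.51 and 2.41 in the young group and at 2.72, 2.53 and 2.19 in the aged group. Aged mice lay on both sides of the young mice, and the difference was 0.05 (95% confidence interval -0.39 to 0.50, adjusted p = 0.907 from limma). Fbxo31, an F-box protein that takes cyclin D1 to degradation, was at 6.29, 6.56 and 6.10 in the young group and at 6.75, 6.12 and 6.22 in the aged group with its brighter probe (A_51_P356283, NM_133765). Here too aged mouse 1 was the highest and young mouse 3 the lowest, and the difference was 0.04 (95% confidence interval -0.50 to 0.59, adjusted p = 0.940 from limma). The second probe of Fbxo31 (A_55_P2162815) gave -0.21 (standard error 0.25). Without aged mouse 1 the differences of Fbxo21 and Fbxo31 were -0.066 and -0.15, and without young mouse 3 that of Fbxo31 was -0.063. Within row 1 of the slide they were 0.30 and 0.43.

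Trim32 and Nedd4 are ligases outside the F-box family: Trim32 acts on desmin and other filament proteins, and Nedd4 is a HECT ligase. The log2 signal of Trim32 (A_55_P2026863, NM_053084) was 3.29, 3.27 and 3.59 in the young group and 3.19, 3.47 and 3.31 in the aged group. The groups overlapped and the order of mice was not that of Fbxo32, with aged mouse 1 the lowest, and the difference was -0.06 (95% confidence interval -0.47 to 0.35, adjusted p = 0.886 from limma). It was 0.0057 without aged mouse 1 and 0.041 without young mouse 3. Nedd4 (A_52_P648424, NM_010890) was nearly level in young mice, at 6.15, 6.15 and 6.14, and was at 6.21, 5.79 and 5.80 in the aged group. Aged mice 2 and 3 were below all young mice and aged mouse 1 was above them. The difference of Nedd4 was -0.21 (standard error 0.18, 95% confidence interval -0.63 to 0.21, adjusted p = 0.606 from limma). Within row 1 it was 0.067, and without aged mouse 1 it was -0.35.

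Among the FoxO factors, Foxo1, the member whose RNA is known to rise in fasted muscle, spread as widely as the main atrophy ligases. With its brighter probe (A_51_P138044, NM_019739) the log2 signal was 5.05, 4.50 and 2.56 in the young group and 5.05, 3.81 and 3.27 in the aged group. Young mouse 1 and aged mouse 1 shared the top, young mouse 3 was the lowest, and the aged mice lay within the range of the young mice to within 0.01. Group means were 4.03 ± 1.31 (young) and 4.04 ± 0.91 (aged; SD, n = 3 each), a difference of 0.01 (standard error 0.72, 95% confidence interval -1.70 to 1.72, adjusted p = 0.996 from limma). The second probe (A_52_P453884) gave 0.14 (standard error 0.60). The difference was 1.02 within row 1 of the slide, -0.49 without aged mouse 1 and -0.73 without young mouse 3.

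Foxo3, which drives both atrophy ligases and autophagy genes when it is active in muscle, was dim. Its probe (A_55_P2150896, NM_019740) was well above background on 2 of 3 arrays of young mice and 1 of 3 of aged mice. The log2 signal was -3.61, -2.69 and -4.02 in the young group and -3.12, -5.65 and -4.38 in the aged group. Aged mice 2 and 3 were the lowest, but aged mouse 1 was higher than 2 of the young mice. The difference was -0.94 (standard error 0.65, 95% confidence interval -2.49 to 0.60, adjusted p = 0.538 from limma), and it was 0.32 within row 1 of the slide. It was -1.57 without aged mouse 1 (unadjusted p = 0.0230 and adjusted p = 0.204 from limma), but -0.31 without aged mouse 2, -0.57 without young mouse 2 and -0.23 with normexp background correction.

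Foxo4 was the one gene of the 10 for which the groups did not overlap. With its brighter probe (A_55_P2150901, NM_018789) the log2 signal was -1.28, -1.09 and -1.17 in the young group and -1.39, -1.60 and -1.63 in the aged group. All 6 arrays had it well above background, and all 3 aged mice were below all 3 young mice, with a gap of 0.11 between the nearest. The probe was dim. Before scaling it read 124, 121 and 93 in the young group and 119, 94 and 87 in the aged group, with overlap. Group means were -1.18 ± 0.09 (young) and -1.54 ± 0.13 (aged; SD, n = 3 each), a difference of -0.36 (standard error 0.16, 95% confidence interval -0.73 to 0.01, unadjusted p = 0.0567 and adjusted p = 0.361 from limma), or 0.780-fold. The second probe (A_55_P2113026) read -1.75, -1.68 and -1.68 in the young group and -1.86, -2.03 and -2.19 in the aged group, again without overlap, a difference of -0.32 (standard error 0.16, adjusted p = 0.434 from limma over probes). Before scaling the second probe read 89, 80 and 65 in the young group and 86, 70 and 59 in the aged group, also with overlap. Of all genes tested, 13.9% were lower in aged mice without overlap, 7.92% were higher without overlap, and 21.8% did not overlap in either direction. Within row 1 of the slide the difference of Foxo4 was -0.21, without aged mouse 1 it was -0.44, and it stayed between -0.51 and -0.21 in the 18 alternative settings. The summed fibroblast, endothelial and erythrocyte markers were lower in aged mice as well, and their part in this value was not tested.

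**Figure D2:**
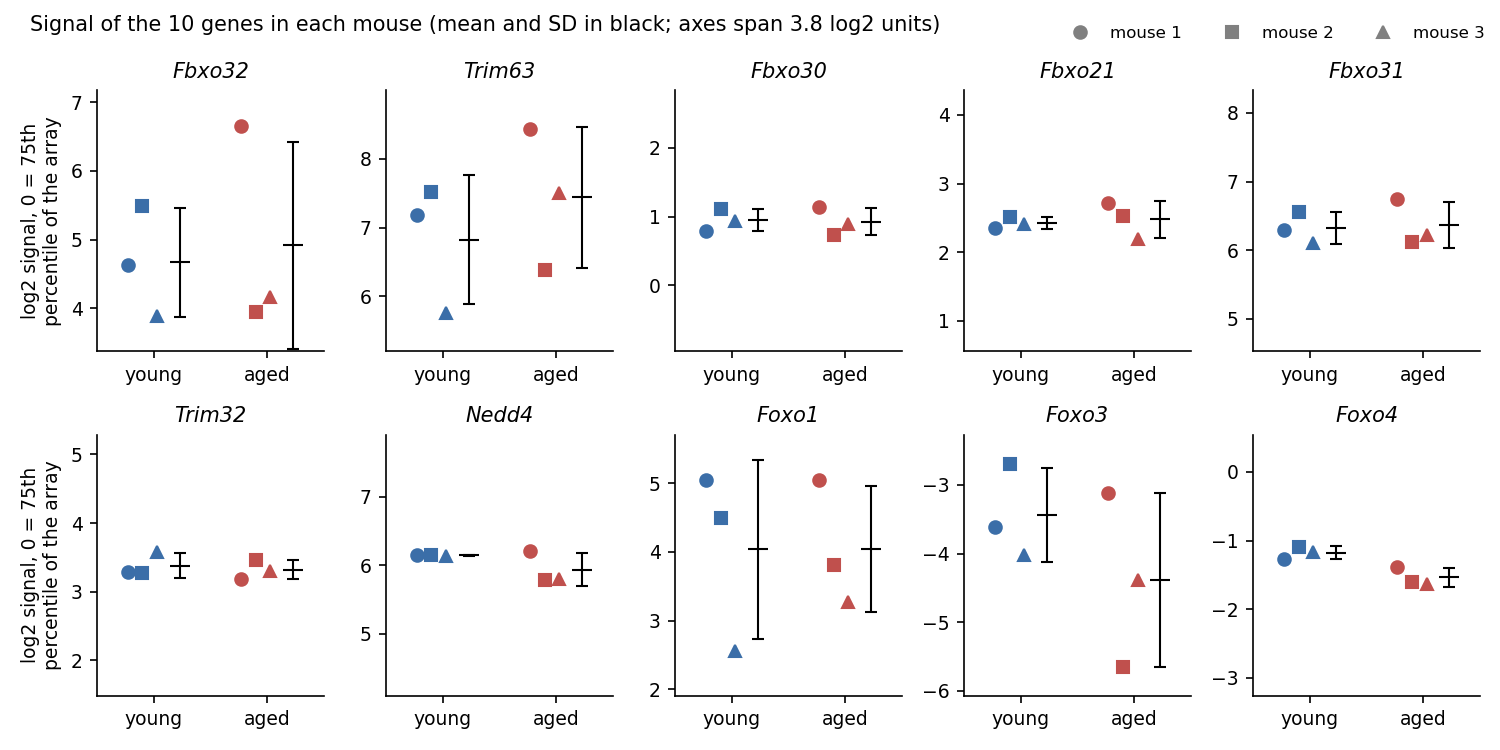
Log2 signal (vertical axes, 0 is the 75th percentile of the array) of the 10 genes in the 3 young mice (blue) and 3 aged mice (red), with mean and SD (n = 3) in black, the marker giving the mouse number within its group, which does not pair mice. Each panel spans the same number of log2 units, so the wide spread of Fbxo32, Trim63, Foxo1 and Foxo3 can be compared with the narrow spread of Fbxo30, Trim32 and Foxo4. In Foxo4 alone the aged mice (-1.63 to -1.39) lie apart from the young mice (-1.28 to -1.09).

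Of the 10 genes, 5 had a higher and 5 a lower mean in aged mice, and the median difference was -0.01. None passed an adjusted p of 0.05 in limma, where 0.254% of all genes tested did, 0.196% higher and 0.0574% lower in aged mice. At an unadjusted p under 0.05 the count was 0 of 10, beside 14.4% of all genes, 6.07% higher and 8.36% lower in aged mice. With 3 mice in each group, 0.1 is the smallest two-sided p that an exact permutation test allows. The 95% confidence interval spanned 3.64 log2 units for Fbxo32 and 3.00 for Trim63, and 0.74 for Foxo4. For Fbxo30, Fbxo21, Fbxo31, Trim32, Nedd4 and Foxo4 the interval did not reach 1 in either direction, and for Fbxo32, Trim63, Foxo1 and Foxo3 it reached beyond 1 in at least 1 direction.

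**Figure D3:**
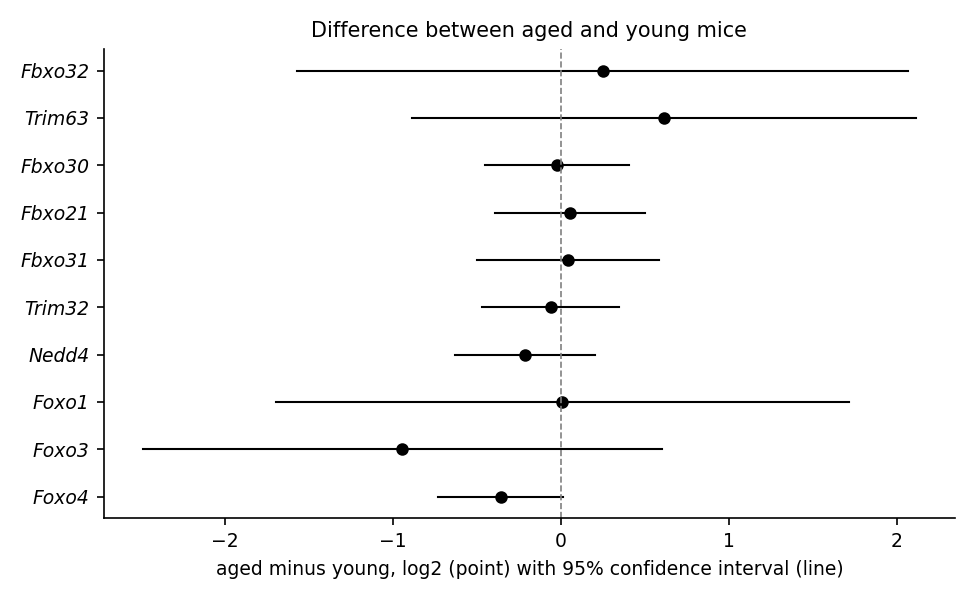
Difference between aged and young mice of each of the 10 genes (horizontal axis, log2; points) with its 95% confidence interval from limma (lines). All intervals include 0, that of Foxo4 (-0.73 to 0.01) by the least, and those of Fbxo32, Trim63, Foxo1 and Foxo3 are the widest.

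The 10 genes fell far apart in their spread between mice of the same group. The SD within groups, pooled over both, was 1.20 on the log2 scale for Fbxo32, 1.13 for Foxo1, 1.02 for Foxo3 and 0.985 for Trim63. Over all genes tested the median of this SD was 0.275 and the 90th percentile 0.653, and the share of genes with a larger SD was 1.44% for Fbxo32, 1.92% for Foxo1, 2.66% for Foxo3 and 2.95% for Trim63. The probe of Foxo3 was near background, and those of Fbxo32, Foxo1 and Trim63 were well above it on all arrays. The other 6 genes were between 0.115 (Foxo4) and 0.288 (Fbxo31). Fbxo32 differed 3.02-fold between the highest and the lowest young mouse and 6.53-fold between aged mice, Trim63 3.40-fold and 4.16-fold, and Foxo1 5.61-fold and 3.44-fold.

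In 6 of the 10 genes (Fbxo32, Trim63, Fbxo31, Nedd4, Foxo1 and Foxo3) young mouse 3 was the lowest of the young mice and aged mouse 1 the highest of the aged mice. Nedd4 differed by no more than 1.01-fold between young mice. The order was noticed after the values were seen. It held in 13.9% of all genes tested. Among the ligases, Fbxo32, Trim63, Fbxo31 and Nedd4 had this order in common with Foxo1, and Fbxo30, Fbxo21 and Trim32 did not. In Fbxo30 and Fbxo21 young mouse 1 was the lowest of the young mice. Of 29 other genes described as FoxO targets, 12 (41.4%) had this order: Cdkn1a, Cited2, Ctsl, Ddit4, Gabarapl1, Insr, Klf15, Pdk4, Pik3c3, Sesn1, Sqstm1 and Ulk1. Among the other lists described further on, the share was 25% of 8 core genes of cullin-RING ligases, 21.4% of 28 other muscle ubiquitin ligases, 17.6% of 17 subunits of the 19S proteasome and 17.4% of 23 FoxO modifiers. It was 16.7% of 6 immunoproteasome genes, 14.3% of 14 subunits of the 20S proteasome, 10% of 10 other regulators, 8.33% of 12 substrates and 0 of 17 genes of ubiquitin and its E1 and E2 enzymes. The 29 genes share the 6 arrays, so these shares are counts over the same mice and not over independent samples. The summed level of muscle fibre markers ran the other way, highest in young mouse 3 (12.5) and lowest in aged mouse 1 (12.0), and its part in this order was not tested.

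Ddit4, Sesn1, Klf15 and Pdk4 are stress, fasting and glucocorticoid response genes, and they show how far single mice stood apart. The mice had free access to a standard diet. When they last fed and the time of day at collection are not given in the sources used here. The part of either in these values was not tested. Ddit4, an inhibitor of mTORC1 signalling, was at 6.62, 7.74 and 2.92 in the young group and at 7.45, 3.25 and 3.14 in the aged group. Sesn1, a sestrin, was at 2.81, 3.60 and 2.08 in the young group and at 4.75, 1.96 and 1.96 in the aged group. Klf15, a factor induced by glucocorticoids, was at 2.0, 2.52 and 1.22 in the young group and at 3.09, 0.92 and 0.43 in the aged group. In each of these, aged mouse 1 was closer to young mice 1 and 2 than to aged mice 2 and 3. Pdk4, the kinase that turns off pyruvate dehydrogenase in fasting, was at 7.08, 8.23 and 5.0 in the young group and at 7.67, 6.94 and 7.22 in the aged group, with young mouse 3 alone apart. These 4 genes were chosen after their values were seen, and none passed the threshold, with adjusted p of 0.762 for Ddit4, 0.978 for Sesn1, 0.803 for Klf15 and 0.784 for Pdk4 from limma.

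**Figure D4:**
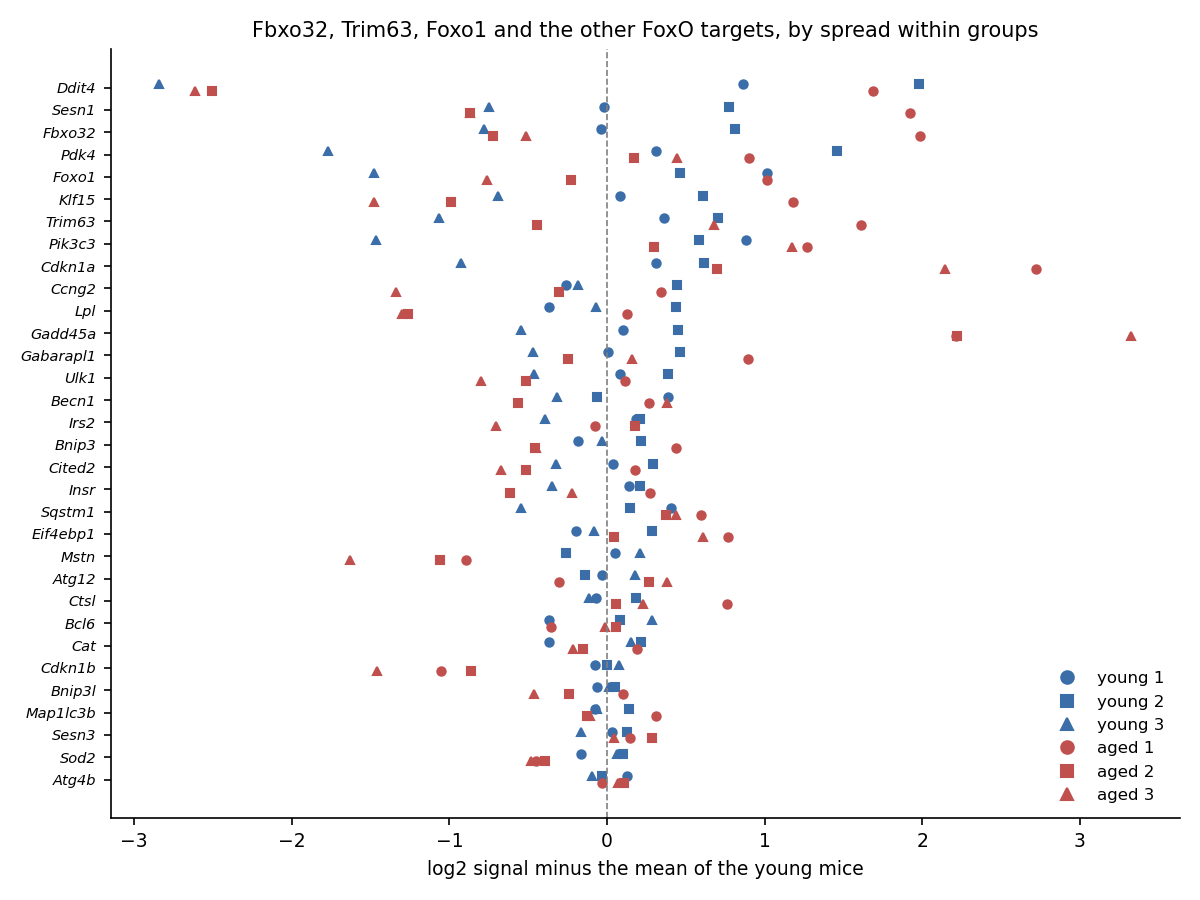
Log2 signal of each mouse minus the mean of the young mice (horizontal axis) for Fbxo32, Trim63, Foxo1 and 29 other FoxO targets (rows, ordered from the largest SD within groups at the top), with young mice in blue, aged mice in red and the marker giving the mouse. In many of the upper rows young mouse 3 (blue triangles) lies at the left and aged mouse 1 (red circles) at the right, as for Fbxo32 at -0.78 and 1.98, while Gadd45a, Mstn and Cdkn1b hold the aged mice together on one side.

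The list of other FoxO targets had no gene past the threshold. Of its 29 genes, 14 had a higher and 15 a lower mean in aged mice, with a median difference of -0.06, equal at this rounding to the median of all genes tested (-0.06). At an unadjusted p under 0.05 in limma, 2 stood higher and 3 lower with age, beside 6.07% and 8.36% of all genes tested. Without overlap, 2 likewise stood higher and 3 lower, beside 7.92% and 13.9% of all genes tested. Both counts are near the background. Gadd45a, a growth arrest gene also induced by denervation, had group means of 1.28 ± 0.51 (young) and 3.87 ± 0.64 (aged; SD, n = 3 each), a difference of 2.59 (adjusted p = 0.0673 from limma). Cdkn1a, the cell cycle inhibitor p21, was 1.85 higher (adjusted p = 0.259). Cdkn1b, the related inhibitor p27, had group means of 3.62 ± 0.08 (young) and 2.49 ± 0.30 (aged; SD, n = 3 each), a difference of -1.13 (adjusted p = 0.103). The difference was -1.20 for Mstn, which encodes the growth inhibitor myostatin (adjusted p = 0.138), and -0.44 for Sod2, the mitochondrial superoxide dismutase (adjusted p = 0.285). The differences of the p21 and p27 genes thus had opposite signs.

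Of 23 kinases, cofactors and other modifiers that act on FoxO factors, 10 were higher and 13 lower in aged mice (median -0.02), and 1 higher and 4 lower had an unadjusted p under 0.05 (6.07% and 8.36% of all genes tested). Foxo6, the remaining FoxO gene, differed by -1.01 (adjusted p = 0.332 from limma), and Sgk1, a kinase that phosphorylates FoxO factors, by -0.82 (adjusted p = 0.254). The deacetylase gene Sirt3 differed by -0.55 (adjusted p = 0.237). Junb, a factor that can hold FoxO3 off its targets, was 1.48 higher (adjusted p = 0.227). These 4 genes were without overlap between the groups. Over the 23 genes, 2 were higher and 5 lower without overlap, beside 7.92% and 13.9% of all genes tested.

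The list of 10 other regulators of Fbxo32 and Trim63 held 5 genes higher and 5 lower in aged mice (median 0.07). Myog, the myogenic factor that activates both ligases after denervation, was at -0.52, -0.22 and 0.04 in the young group and at 1.12, 2.20 and 3.39 in the aged group. All aged mice were above all young mice, a difference of 2.47 (standard error 0.54, adjusted p = 0.149 from limma). Aged mouse 1, the highest of the aged mice in Fbxo32 and Trim63, was the lowest of the aged mice in Myog. Hdac4, which is induced by denervation and lies upstream of Myog, was 0.54 higher (adjusted p = 0.290). Hdac5 differed by -0.68 with an unadjusted p of 0.0489 and with overlap between the groups.

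Of 28 other ubiquitin ligases of muscle, 13 were higher and 15 lower in aged mice (median -0.01). Klhl40, a muscle adaptor of cullin-3 ligases, had group means of 4.47 ± 0.37 (young) and 5.86 ± 0.72 (aged; SD, n = 3 each), a difference of 1.39 (adjusted p = 0.206 from limma). Wwp1, a HECT ligase of the family of Nedd4, differed by -0.41 (adjusted p = 0.286), and Trim54, the relative of Trim63 known as MuRF3, by -0.38 (adjusted p = 0.335). These 3 did not overlap between the groups. Over the 28 genes, 2 were higher and 3 lower without overlap, beside 7.92% and 13.9% of all genes tested. At an unadjusted p under 0.05 in limma, 2 were higher and 2 lower, beside 6.07% and 8.36%. These counts are near the background.

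Among the partners of the ligases, ubiquitin and its enzymes, the proteasome and the substrates, no gene passed the threshold. F-box ligases work in a complex with Skp1, Cul1 and Rbx1, and of the 8 core genes of cullin-RING ligases 4 were higher and 4 lower in aged mice (median -0.0048). Cul3, which serves Klhl40 rather than the F-box proteins, was the only 1 of the 8 with an unadjusted p under 0.05. As 14.4% of all genes tested had such a p, this count is near the background. The log2 signal of Cul3 was 3.58, 3.47 and 3.54 in the young group and 3.09, 3.13 and 3.03 in the aged group, a difference of -0.45 (adjusted p = 0.254 from limma). Ubiquitin and its E1 and E2 enzymes were lower in aged mice in 15 of 17 genes, with a median of -0.18 and 0 genes at an unadjusted p under 0.05. Of the 20S core of the proteasome 11 of 14 genes were higher (median 0.08), and of the 19S cap 16 of 17 (median 0.11), also with 0 at an unadjusted p under 0.05. Among all 20901 genes tested, 9019 were higher and 11882 lower in aged mice. With scaling to the median of the array both proteasome medians were below 0, at -0.072 and -0.033, when that of all genes was -0.21. Of 6 immunoproteasome and activator genes 5 were lower (median -0.21), among them Psme1, a subunit of the PA28 activator induced by interferon, at -0.71 (adjusted p = 0.266). Of 12 known substrates of the ligases, such as Myod1 and sarcomere proteins, 6 were higher and 6 lower (median 0.02), with 0 at an unadjusted p under 0.05.

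**Figure D5:**
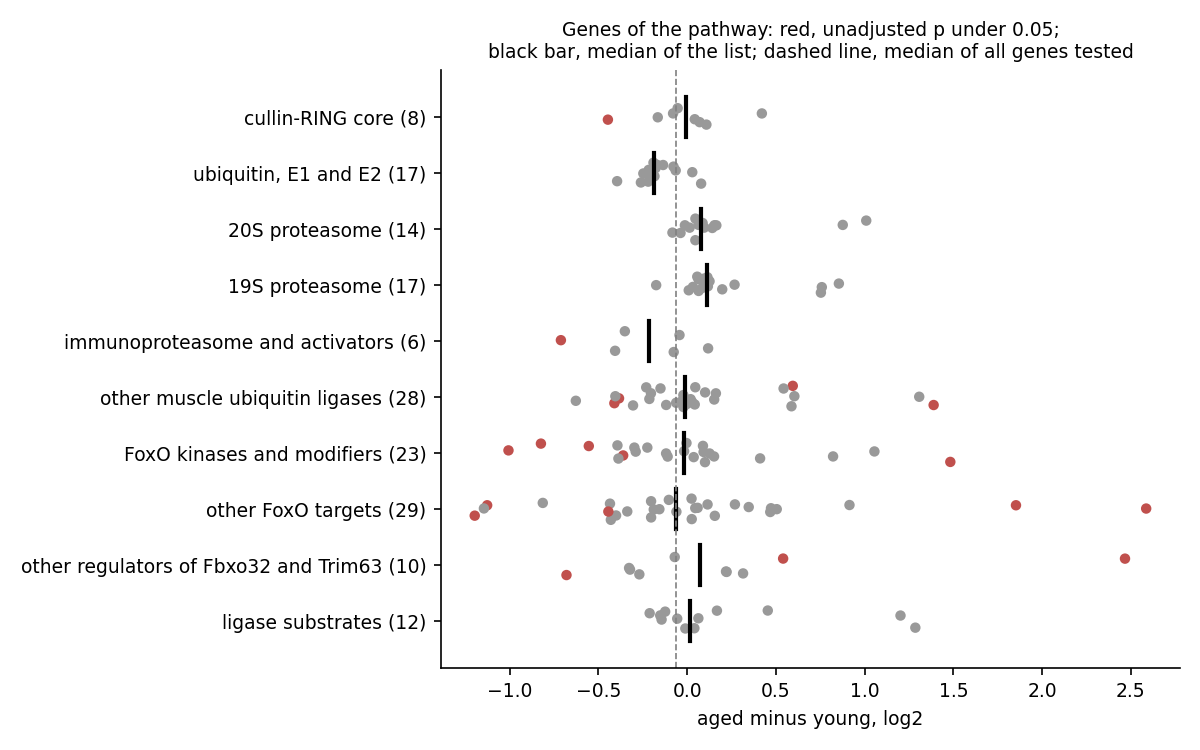
Difference between aged and young mice (horizontal axis, log2) of each gene (points) in 10 lists of the ubiquitin-proteasome system and of FoxO factors (rows, number of genes tested in brackets), with genes at an unadjusted p under 0.05 in red, list medians as black bars and the median of all genes tested (-0.06) as a dashed line. The red points lie on both sides within the lists of FoxO targets and other ligases, and no gene passed the adjusted threshold.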

How the data were processed

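RNA of the gastrocnemius of 3 young and 3 aged mice was measured on 1 single-colour Agilent array per mouse. Groups and mouse numbers were taken from the sample titles. The p-values rest on the spread between these mice, which limma draws for each gene toward a value common to all genes tested. For each array the authors deposited its scanner table from Feature Extraction (version 11.0.1.1 per the file headers, 9.5 per the submitters' processing notes), in which the processed signal is an intensity on a linear scale with background subtracted and without scaling across arrays. The series matrix they deposited holds the same intensities (largest log2 difference 0) and was used as an alternative. The study names no normalization or test for the arrays.

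Of 59305 non-control spots per array, 161 to 212 were left out for non-uniformity or outlier flags. The log2 signal was averaged over a probe's spots, and the array's 75th percentile (209 to 310 before log2) was then subtracted. Background and trends removed within each array by the authors' software can shift dim probes such as those of Foxo3 and Foxo4 more than bright ones. Accessions were matched without version to RefSeq transcripts of GRCm38.p6, which named 28331 of 55681 probes, and 12 probes with only flagged spots on some array were left out. No probe was saturated. A probe was kept when well above background on at least 3 of 6 arrays, and the kept probe with the highest mean represented the gene. This gave 20901 genes, 13845 with a symbol. No probe coordinates are given, because the array was designed on another build.

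The comparison used lmFit and eBayes of limma 3.58.1 under R 4.3.3 (two-sided, Benjamini-Hochberg over all genes, threshold 0.05), which was tested on simulated data. Depth on an array is signal over background, and the number of arrays limits the precision. Named are the 10 genes with every probe and, of each list, genes with an adjusted p under 0.05 or, up to 5 per list by smallest p, with an unadjusted p under 0.05 and no overlap. Some genes that meet this rule are not reported here. The genes and the lists were chosen with earlier results of these data known, and Gadd45a and Myog were among those results. Alternatives were normexp background correction (offset 50), quantile and median scaling, the 75th percentile of detected probes only, no or a stricter filter, all probes of a gene, the series matrix, a mean-variance trend, a block for slide row or for mouse number, and each mouse left out in turn. Young and aged mice of the same number did not deviate together (r = -0.06, -0.27 and 0.03 across genes), so numbers were not treated as pairs. The metabolite and RT-PCR measurements are not analysed here.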

Additional observations from a re-analysis of the deposited data

How the results depend on the processing

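None of the 10 genes passed the adjusted threshold in any of the 18 alternatives (17 for Foxo3, which the filter for all 6 arrays removes). Trim63 stayed higher in aged mice (0.082 to 1.61) and Foxo4 lower (-0.51 to -0.21, adjusted p 0.249 to 0.696). At an unadjusted p under 0.05 there was 1 gene, Foxo4, with normexp correction, with quantile normalization and with median scaling, 1, Fbxo32, with slide row as a block, and 0 to 2 when a mouse was left out (Foxo3 and Foxo4 without aged mouse 1). With row as a block the comparison is that of aged mouse 1 with the young mice of its row.

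Directions turned as follows. With median scaling the difference was -0.093 for Fbxo21, -0.10 for Fbxo31 and -0.14 for Foxo1. Fbxo30 was at 0.0018 with normexp correction, 0.012 with the 75th percentile of detected probes, 0.20 with its probes averaged, 0.19 with the row block, and 0.063 and 0.071 without young or aged mouse 2. Fbxo31 was at -0.085 with the mean of its probes. With the row block Foxo3 was at 0.32 and Nedd4 at 0.067. Leaving out 1 mouse gave -0.62 to 0.74 for Fbxo32, -0.73 to 0.52 for Foxo1, -0.15 to 0.17 for Fbxo31, -0.066 to 0.20 for Fbxo21, -0.13 to 0.071 for Fbxo30 and -0.13 to 0.041 for Trim32. The cause was not tested.

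Over all genes, 53 were called, 8 with no filter, 35 with the stricter filter, and 1 (without aged mouse 3) to 199 (without aged mouse 1) when a mouse was left out. With the replicate number as a block 5 genes were called and 0 of the 10. Of the calls, 77.4% were higher in aged mice, 63.3% with normexp correction, 61.9% with median scaling and 53.7% with the row block. Median scaling moved the median of all genes from -0.062 to -0.209.

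List medians moved as follows. With median scaling they were -0.033 for 19S, -0.072 for 20S, -0.16 for FoxO modifiers, -0.15 for cullin-RING genes, -0.13 for substrates, -0.16 for other ligases and -0.072 for other regulators. With quantile normalization they were 0.21 for 19S, 0.15 for 20S, 0.14 for substrates and 0.046 for other ligases, and with normexp correction 0.14 for 20S. With the row block they were 0.20 for 19S, 0.095 for FoxO modifiers, -0.075 for cullin-RING genes, 0.28 for FoxO targets and -0.36 for ubiquitin, E1 and E2. Leaving out 1 mouse gave -0.15 to -0.016 for FoxO modifiers and -0.12 to 0.090 for other regulators. Foxo3 was well above background on 3 of the 6 arrays.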
